A study of Mus musculus with 12 samples.

Results

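Chromatin accessibility at 36 genes that mark lineages other than T cells was examined in CD4 T cells sorted from mouse bone marrow. The genes mark B cells (12), plasma cells (2), the myeloid lineage (12), the erythroid lineage (5) and blood progenitors (5). They were listed by name as identity genes of these lineages. ATAC-seq, in which the Tn5 transposase inserts adapters into accessible DNA, had been run on 12 libraries, and the deposited data were 1 peak list per library. Overlapping peaks (1 bp or more) from any of the lists were joined, which gave 76882 consensus regions. A region belonged to a gene when its midpoint lay in the gene body or, outside gene bodies, when that gene's end was the nearest within 50 kb. This gave 138 of the 76882 regions to 32 of the 36 genes, 58 in gene bodies and 80 outside them. One of the 138, in Rag2, also lies in the body of Iftap and covers its promoter. Regions assigned to Cd34, Xbp1, Meis1 and Sdc1 overlap promoters of Gm16897, Gm11963, 8430419K02Rik and Gm4755.

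The study transferred CD4 T cells carrying the 6.5TCR, a T cell receptor specific for HA, into Aire-HA hosts, and sorted bone marrow subsets at day 14. All animals were Balb/c, and each of 6 groups had 2 libraries. Donor conventional cells (donor Tconv), which had not converted to regulatory T cells, carried CD45.2, CD3 and CD4 and lacked CD45.1 and CD25. Donor cells that had converted (donor Treg) lacked CD45.1 as well, but were positive for CD25 and for LAP, the latency peptide of TGF-beta. Host conventional cells (host Tconv), titled wild type and carrying Aire-HCO in their library names, had CD45.1, CD3 and CD4 without CD45.2 or CD25. The host regulatory cells were positive for CD45.1, CD45.2, CD3, CD4, CD25 and also CTLA4, and were either Nrp1- (host pTreg) or Nrp1+ (host tTreg), so that their label lists both CD45 alleles where that of host Tconv lists 1. The culture control, iTreg, was made by induction in vitro from wild-type cells and sorted for CD3, CD4, CD25 and LAP. Ages, the pooling of animals and whether replicates came from separate animals are not stated, so the spread between replicate libraries may be technical. The tests took libraries as units and pooled groups, although the 2 libraries of a group share its sort. Their p-values therefore do not measure the spread between groups. With groups as units, 4 regulatory against 2 conventional, the smallest exact p is 0.0667 (Fisher's exact test), and iTreg is 1 group. Every group was sorted on CD3 and CD4, a gate that selects T cells.

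Blood cell identity is set by transcription factors that act in combination: Pax5 and Ebf1 in B cells, Spi1 (PU.1) and the C/EBP factors in myeloid cells, Gata1 and Klf1 in red cell precursors, and Gata2, Tal1 and Meis1 in stem and progenitor cells. Their target genes include receptors, granule proteins and globins that are typical of those lineages and not of T cells. T cells arise from progenitors that pass through stages in which several of these genes are active before they are silenced. An accessible region near such a gene is not a measure of its expression, and a region can serve another gene nearby.

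The promoters that differed between groups, or that mark the extremes, are shown so that the base composition of promoters with and without a peak can be seen. RefSeq promoter windows (GRCm38.p6, the coordinates of mm10) ran from 250 bases before to 50 after the annotated start, and 30 of the 36 genes had one. The 250 bases before the start are printed 5' to 3' on the gene's strand, with each CG pair in capitals. The first set holds promoters with a peak in both libraries of some groups and in neither library of others: Sdc1 (chr12:8771146-8771395, + strand), Lyz2 (chr10:117282273-117282522, - strand), Itgam (chr7:128062390-128062639, + strand), Kit (chr5:75574737-75574986, + strand) and Meis1 (chr11:19018970-19019219, - strand).
Sdc1: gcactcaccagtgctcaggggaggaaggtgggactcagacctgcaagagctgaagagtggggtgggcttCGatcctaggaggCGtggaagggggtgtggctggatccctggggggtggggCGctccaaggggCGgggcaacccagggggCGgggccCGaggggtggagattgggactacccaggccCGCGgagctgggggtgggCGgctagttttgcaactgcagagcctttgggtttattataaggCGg
Lyz2: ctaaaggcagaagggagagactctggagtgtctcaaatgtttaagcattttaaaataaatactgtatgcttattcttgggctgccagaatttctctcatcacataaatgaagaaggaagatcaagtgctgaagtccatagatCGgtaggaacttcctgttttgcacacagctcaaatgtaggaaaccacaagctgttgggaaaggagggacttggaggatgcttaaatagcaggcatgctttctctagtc
Itgam: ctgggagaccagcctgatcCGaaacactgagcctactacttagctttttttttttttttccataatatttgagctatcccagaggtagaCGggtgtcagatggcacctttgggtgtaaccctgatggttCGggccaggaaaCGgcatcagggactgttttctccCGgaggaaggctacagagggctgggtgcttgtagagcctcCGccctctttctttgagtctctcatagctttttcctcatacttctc
Kit: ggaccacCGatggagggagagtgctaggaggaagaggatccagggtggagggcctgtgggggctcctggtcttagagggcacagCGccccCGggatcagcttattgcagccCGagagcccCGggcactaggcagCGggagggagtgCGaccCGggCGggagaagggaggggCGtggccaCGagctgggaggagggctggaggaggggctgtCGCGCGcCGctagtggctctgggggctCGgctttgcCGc
Meis1: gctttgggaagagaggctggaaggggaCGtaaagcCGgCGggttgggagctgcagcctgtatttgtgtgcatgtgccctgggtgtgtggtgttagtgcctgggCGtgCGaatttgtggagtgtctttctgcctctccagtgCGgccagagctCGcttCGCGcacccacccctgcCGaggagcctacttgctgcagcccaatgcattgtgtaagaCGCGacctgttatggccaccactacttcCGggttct
The second set holds 1 promoter without a peak in any library, Cd79a (chr7:24897247-24897496, + strand), and 2 promoters with a peak in all 12, Xbp1 (chr11:5520391-5520640, + strand) and Cebpa (chr7:35119043-35119292, + strand).
Cd79a: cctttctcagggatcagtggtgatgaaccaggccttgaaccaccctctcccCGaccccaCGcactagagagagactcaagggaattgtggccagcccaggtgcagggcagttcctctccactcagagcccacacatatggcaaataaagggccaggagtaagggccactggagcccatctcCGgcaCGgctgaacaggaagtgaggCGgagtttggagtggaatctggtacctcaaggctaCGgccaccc
Xbp1: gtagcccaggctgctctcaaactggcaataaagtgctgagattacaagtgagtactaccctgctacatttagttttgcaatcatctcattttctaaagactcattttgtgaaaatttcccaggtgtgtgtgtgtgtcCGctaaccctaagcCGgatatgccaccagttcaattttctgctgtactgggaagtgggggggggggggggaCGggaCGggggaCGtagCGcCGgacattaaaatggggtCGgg
Cebpa: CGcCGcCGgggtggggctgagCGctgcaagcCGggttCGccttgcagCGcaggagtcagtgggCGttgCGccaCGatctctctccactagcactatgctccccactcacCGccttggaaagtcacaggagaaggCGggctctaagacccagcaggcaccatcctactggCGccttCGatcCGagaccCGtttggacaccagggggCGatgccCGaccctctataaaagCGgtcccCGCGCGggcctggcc

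Most of the 30 promoters had no peak in any library. The count without a peak was 20 of 30 (66.7%), against 42.2% of the 17491 genes with a window. The promoters of Xbp1, Cebpa, Cebpb and Tfrc had a peak in all 12 libraries, which is 13.3% of the 30 against 46.7% of all genes with a window. The remaining 6 promoters differed between libraries. Meis1 had a promoter peak in all 8 regulatory libraries and in none of the 4 conventional libraries. Itgam had one in all 4 Tconv and both iTreg libraries and in none of the 6 in vivo Treg libraries. Kit and Lyz2 had one in both iTreg libraries alone, and Blnk in iTreg 2 alone. The Sdc1 window had a peak in both donor Tconv, both iTreg, host Tconv 2 and host tTreg 2. By group, the windows with a peak in both libraries numbered 6 in donor Tconv (20.0%, against 51.4% of all genes with a window). They numbered 5 (16.7%) in host Tconv, donor Treg, host pTreg and host tTreg, where the shares of all genes were 50.2%, 49.5%, 49.2% and 48.0%. In iTreg they numbered 9 (30.0%, against 54.8%).

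CG content differed among these promoters. The printed bases held 22 CG pairs in Cebpa and 8 in Xbp1, both open everywhere, against 6 in Cd79a. The median was 23.5 (8 to 41) over the 4 promoters open in all libraries, 8.0 (1 to 17) over the 6 open in some and 3.5 (1 to 22) over the 20 open in none. Across all 32851 windows in the RefSeq table the median was 6, with quartiles of 2 and 16. The separation was not complete: Gata2, with 22 CG pairs, and Pax5, with 19, had no promoter peak in any library. Among the variable promoters Kit had 17 pairs, Meis1 13, Sdc1 10, Itgam 6 and Lyz2 1. Short letter patterns were searched on both strands of these 250 bases. The pattern GAGGAA, a core read by ETS factors such as PU.1, was found 2 times in Itgam and 1 time each in Sdc1, Kit and Cd79a, and 23.3% of all windows hold it. The pattern GGGCGG, a core of Sp and Klf sites, was found 3 times in Sdc1 and 1 time each in Itgam and Kit, and 32.7% of all windows hold it. The pattern CCCNNGGG, read by EBF factors and identical on both strands, was found 3 times in Sdc1 and 1 time in Kit, and 11.8% of all windows hold it. Such a stretch can overlap a match to the Sp pattern. The pattern of C/EBP factors, TTNNGCAA, was found 1 time each in Sdc1 and Xbp1, and 9.56% of all windows hold it. The pattern AGATAA, read by factors such as Gata1, was in none of the 8 printed windows, and 9.99% of all windows hold it. Meis1, Lyz2 and Cebpa held no match to any of these patterns. A match is a description of the letters and not a binding site.

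Peaks at the members were most numerous in iTreg and fewest in host tTreg 1. Of the 138 regions, donor Tconv libraries had a peak in 74 and 70, host Tconv in 50 and 66, donor Treg in 51 and 52, host pTreg in 55 and 44, host tTreg in 42 and 59, and iTreg in 105 and 114. The lists themselves differed in length in the same direction, from 28394 peaks in host tTreg 1 to 63207 in iTreg 2, with 496365 peaks in all. Per 10000 regions with a peak, the members took 14.0 to 17.1 in the 10 in vivo libraries and 18.3 and 18.2 in iTreg. Read depth is not known from these lists, and the absence of a peak does not show that a region was closed. In bulk libraries, open chromatin in fewer cells and less open chromatin per cell cannot be told apart. Library names also carry a number whose meaning is not given, and it is larger in Tconv and iTreg than in the in vivo Tregs. The part of list length and of that number in the results was not tested. Donor Tconv, donor Treg and host Tconv share 1 run code in their names and the host Tregs share another.

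The share of member regions with a peak in both libraries of a group was below that of all consensus regions in each of the 6 groups, by the least in iTreg. It was 48.6% (67 regions) in donor Tconv against 53.8% of all regions, 35.5% (49) in host Tconv against 45.1%, and 33.3% (46) in donor Treg against 38.4%. It was 29.7% (41) in host pTreg against 39.5% and 28.3% (39) in host tTreg against 34.2%. In iTreg the share was 70.3% (97), against 71.0%. The order of the groups changed when the lists were cut to equal length, a setting that also changes peak width. With each list limited to its widest 28394 peaks, the regions with a peak in both libraries numbered 36 in donor Tconv, 28 in host Tconv, 42 in donor Treg, 35 in host pTreg, 37 in host tTreg and 38 in iTreg, so that donor Treg and not iTreg had the most. Regions with a peak in all 12 libraries numbered 29 (21.0%, against 27.9% of all regions), and they lay at 16 of the 36 genes. By lineage these were 3 of 38 B regions, 3 of 11 plasma cell regions, 14 of 48 myeloid regions, 6 of 14 erythroid regions and 3 of 27 progenitor regions. A further 23 regions (16.7%, against 14.9%) had a peak in 1 library only.

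**Figure D1:**
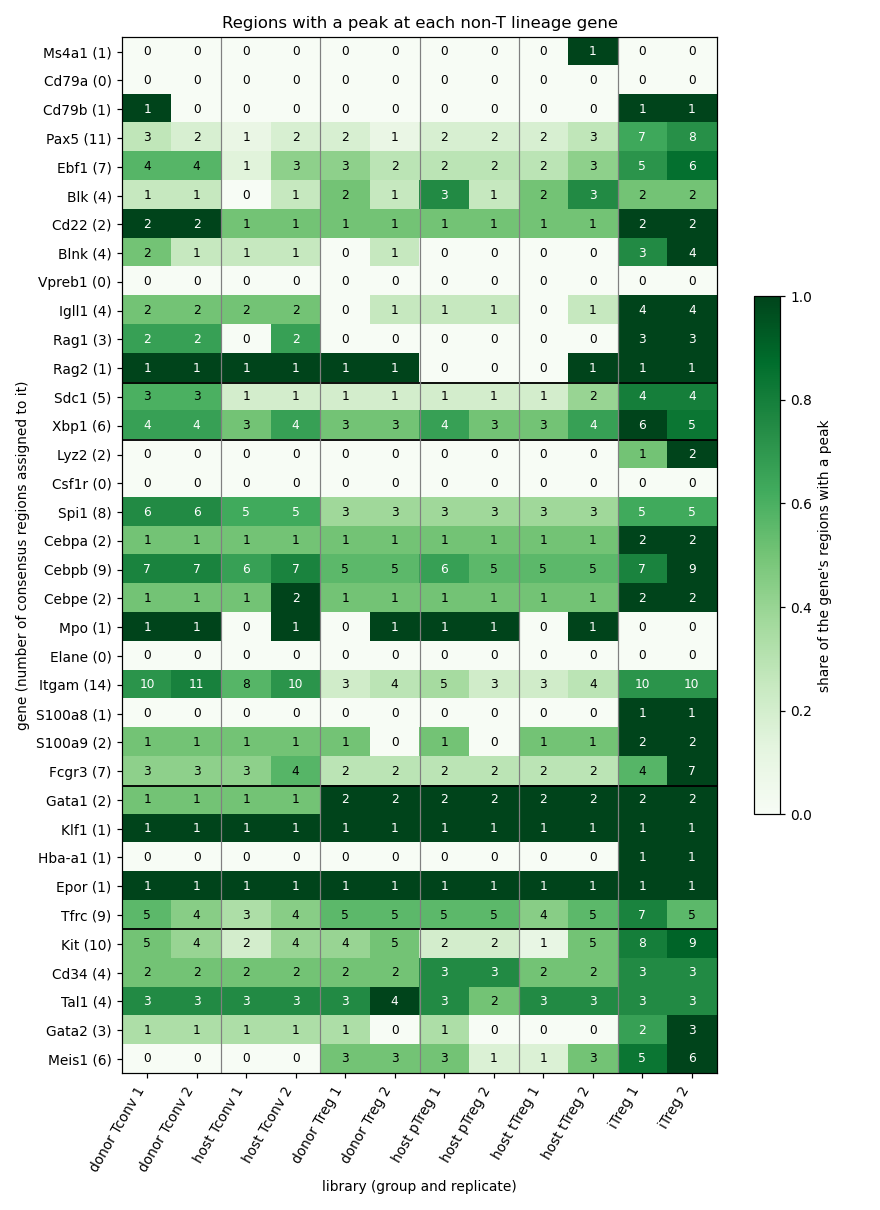
Number of consensus regions with a peak for each of the 36 genes (vertical axis, ordered by lineage) in each of the 12 libraries (horizontal axis), shaded by the share of the gene's regions. By the assignment rule Cd79a, Vpreb1, Csf1r and Elane are empty in every library, S100a8, Hba-a1 and Lyz2 are filled in iTreg alone, and Meis1 is empty in the 4 Tconv libraries.

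The 12 B lineage genes held 38 regions. Libraries of iTreg had a peak in 73.7% and 81.6% of them, donor Tconv in 47.4% and 39.5%, host Tconv in 18.4% and 34.2%, donor Treg in 23.7% and 21.1%, host pTreg in 23.7% and 18.4%, and host tTreg in 18.4% and 34.2%. The ranges of host Tconv and the in vivo Tregs overlapped, while donor Tconv lay above them and iTreg above all. Over all consensus regions the shares were 60.4% and 56.4% in donor Tconv and 46.4% and 56.9% in host Tconv. They were 35.1% to 47.8% in the in vivo Tregs and 74.8% and 81.5% in iTreg. That order was similar, except that donor and host Tconv overlapped. With lists of equal length (the widest 28394 peaks of each), which left 15 B regions, the order at the B genes was not kept. The Tconv libraries had a peak in 4 or 5, the in vivo Tregs in 5 to 7 and iTreg in 7 and 7. Genes of the B cell receptor had few regions by the rule. Cd79a, which encodes a signalling chain of that receptor, had no region by the rule. Its partner Cd79b had 1, with a peak in donor Tconv 1 and both iTreg libraries. When any overlap with the gene body was counted, Cd79a had 1 region, with a peak in both libraries of each group. The midpoint of that region lay outside the Cd79a body. Ms4a1, which encodes CD20, had 1 region of 150 bp, with a peak in host tTreg 2 alone. Vpreb1, a surrogate light chain gene of pre-B cells, had no region of its own by the rule.

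The factor Pax5, which commits cells to the B lineage, had 11 regions. Its in vivo libraries held 1 to 3 of them and iTreg 7 and 8. A region in the gene body (chr4:44704018-44704899) had a peak in all 12 libraries. The factor Ebf1, which acts upstream of Pax5, had 7 regions, with 4 and 4 in donor Tconv, 1 and 3 in host Tconv, 2 or 3 in each in vivo Treg library, and 5 and 6 in iTreg. One Ebf1 region inside the gene (chr11:44924973-44925280) had a peak in both donor Tconv libraries, of 308 and 241 bp, and in no other library. Blk, a Src family kinase of B cells, had 4 regions, of which 1 is described with the Treg comparisons. Cd22, an inhibitory receptor, had 2: one with a peak in every library and one (chr7:30873112-30873375) in both donor Tconv and both iTreg libraries alone.

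The adaptor Blnk, which links the B cell receptor to downstream signalling, had 4 regions, of which 3 and 4 had a peak in iTreg, 1 or 2 in each Tconv library and 1 in donor Treg 2. The other in vivo Treg libraries had none. The surrogate light chain gene Igll1 had 4 regions, with 4 and 4 in iTreg, 2 in each Tconv library and 0 or 1 in each in vivo Treg library. The recombinase genes Rag1 and Rag2, which cut antigen receptor genes in developing lymphocytes, are neighbours. Rag1 had 3 regions; donor Tconv had a peak in 2 and 2, host Tconv in 0 and 2, each in vivo Treg library in 0 and iTreg in 3 and 3. The Tconv peaks at Rag1 lay downstream (chr2:101636943-101637529) and upstream (chr2:101652819-101653216) of the gene and were missing only in host Tconv 1. The single Rag2 region (chr2:101628415-101629227) had a peak in every library except both host pTreg and host tTreg 1.

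The plasma cell genes were Sdc1, which encodes the surface proteoglycan CD138, and Xbp1, a factor of the secretory programme that many cell types use. Xbp1 had 6 regions, and 3 of them, including its promoter, had a peak in all 12 libraries. Another of these 3, 34879 bp upstream, overlaps the promoter of Gm11963. Sdc1 had 5 regions, with 3 and 3 in donor Tconv, 1 and 1 in host Tconv, 1 in each in vivo Treg library except host tTreg 2 with 2, and 4 and 4 in iTreg. An Sdc1 region in the gene (chr12:8787010-8787452) had a peak in both donor Tconv and both iTreg libraries alone. The Sdc1 region farthest from its gene, at 48617 bp, had a peak in 5 libraries, and the nearest region beyond the 50 kb limit, at 51191 bp, had one in 7.

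The 12 myeloid genes held 48 regions, and here the Tconv libraries ranged above the in vivo Tregs. The share with a peak was 62.5% and 64.6% in donor Tconv, 52.1% and 64.6% in host Tconv, 33.3% and 35.4% in donor Treg, 41.7% and 33.3% in host pTreg, 33.3% and 37.5% in host tTreg, and 70.8% and 83.3% in iTreg. The same share over all consensus regions was 46.4% to 60.4% in Tconv, 35.1% to 47.8% in the in vivo Tregs, where these ranges overlapped, and 74.8% and 81.5% in iTreg. With lists of equal length, 28 myeloid regions were left, and the Tconv libraries had a peak in 17 to 19 and the in vivo Tregs in 14 to 17, so that the groups met at 17. The lineage factor Spi1 had 8 regions, with 6 and 6 in donor Tconv, 5 and 5 in host Tconv, 3 in each of the 6 in vivo Treg libraries and 5 and 5 in iTreg. Cebpa, a factor of granulocyte and monocyte precursors, had 2 regions, the promoter with a peak everywhere and one upstream (chr7:35107632-35107837) in iTreg alone. Cebpb, a related factor active in many cell types, had 9 regions, of which 5 had a peak in all 12 libraries. Its count was 6 or 7 in Tconv, 5 or 6 in the in vivo Tregs and 7 and 9 in iTreg. Cebpe, which acts late in granulocytes, had 2 regions, one of them with a peak in every library.

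Among genes of granule and secreted proteins of myeloid cells, Elane, Lyz2 and S100a8 had no peak in vivo by the rule, while S100a9 and Mpo had some. Elane, which encodes neutrophil elastase, had no region. Lyz2, lysozyme of macrophages and granulocytes, had 2 regions, with no peak in any of the 10 in vivo libraries and 1 and 2 in iTreg. Its start region (chr10:117282160-117282465) had peaks of 232 and 279 bp in iTreg. Of the calprotectin genes, S100a8 had 1 region (chr3:90664262-90664536), with a peak in both iTreg libraries alone, and S100a9 had 2, of which one had a peak in 8 of 10 in vivo libraries and both iTreg. Mpo, which encodes myeloperoxidase, had 1 region in its body (chr11:87801911-87802277) with the opposite pattern: it had a peak in 7 of the 10 in vivo libraries and in neither iTreg library. Those 7 were both donor Tconv, host Tconv 2, donor Treg 2, both host pTreg and host tTreg 2.

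Among myeloid surface receptors, Csf1r, the receptor for the macrophage growth factor, had no region. Itgam encodes CD11b, an integrin chain of myeloid and natural killer cells, and it had 14 regions, the most of any member. Donor Tconv had a peak in 10 and 11 of them, host Tconv in 8 and 10, donor Treg in 3 and 4, host pTreg in 5 and 3, host tTreg in 3 and 4, and iTreg in 10 and 10. The lowest Tconv value, 8, lay above the highest in vivo Treg value, 5, so that these groups did not overlap. How many of all genes separate in this way was not counted. The Tconv lists held 37050 to 47193 peaks and the in vivo Treg lists 28394 to 37934. With lists of equal length the groups did overlap, at 3 or 4 of 7 Itgam regions in Tconv and 2 to 4 in the in vivo Tregs. Fcgr3, an activating Fc receptor, had 7 regions, with 3 or 4 in Tconv, 2 in each in vivo Treg library and 4 and 7 in iTreg. An Fcgr3 region in the gene (chr1:171058355-171058799) had a peak in the 4 Tconv and 2 iTreg libraries alone.

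The 5 erythroid genes held 14 regions, of which 6 had a peak in all 12 libraries. The share with a peak was 42.9% to 57.1% in Tconv and 57.1% to 64.3% in the in vivo Tregs. In iTreg it was 85.7% and 71.4%. Over all consensus regions it was 46.4% to 60.4% in Tconv, 35.1% to 47.8% in the in vivo Tregs, and 74.8% and 81.5% in iTreg. With lists of equal length, 9 regions were left. The Tconv libraries had a peak in 4 or 5, the in vivo Tregs in 8 or 9 and iTreg in 6 and 6. How many gene lists of this size separate in this way was not counted. Klf1, a factor that activates globin genes, and Epor, the erythropoietin receptor, each had 1 region in the body with a peak in every library. Tfrc, the transferrin receptor that any dividing cell uses for iron uptake, had 9 regions, 3 of them with a peak everywhere, including the promoter. A Tfrc region near the end of the gene (chr16:32632344-32632899) had a peak in both donor Treg, both host pTreg and host tTreg 2 and in no Tconv or iTreg library. Hba-a1, an alpha globin gene, had 1 region 2731 bp upstream (chr11:32280734-32281148), with a peak in both iTreg libraries alone. Gata1, the master factor of red cells, had 2 regions, one in its body with a peak in all libraries and one upstream that is described with the Treg comparisons.

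The 5 progenitor genes held 27 regions. The share with a peak was 40.7% and 37.0% in donor Tconv, 29.6% and 37.0% in host Tconv, 48.1% and 51.9% in donor Treg, 44.4% and 29.6% in host pTreg, 25.9% and 48.1% in host tTreg, and 77.8% and 88.9% in iTreg. Donor Treg lay above donor Tconv here, the reverse of the B and myeloid genes, while the host Treg values spanned those of Tconv. The erythroid genes shared this direction, with 64.3% and 64.3% in donor Treg against 57.1% and 50.0% in donor Tconv. Over all consensus regions the shares were 40.7% and 43.4% in donor Treg and 60.4% and 56.4% in donor Tconv. In the full lists the progenitor difference lay at Meis1, with 0 and 0 in donor Tconv and 3 and 3 in donor Treg. Donor Tconv against donor Treg was 5 and 4 against 4 and 5 at Kit, and 2 and 2 in both at Cd34. Tal1 had 3 and 3 against 3 and 4, and Gata2 1 and 1 against 1 and 0. With lists of equal length, which left 16 progenitor regions, donor Treg had a peak in 12 and 12 and donor Tconv in 7 and 6. Of these, Meis1 gave 3 and 3 in donor Treg and 0 and 0 in donor Tconv, so that part of the difference lay at other progenitor genes. Kit, the stem cell factor receptor, had 10 regions, with 5 and 4 in donor Tconv, 2 and 4 in host Tconv, 4 and 5 in donor Treg, 2 and 2 in host pTreg, 1 and 5 in host tTreg, and 8 and 9 in iTreg. The region at the start of Kit (chr5:75574344-75576519) had peaks of 1871 and 2165 bp in iTreg and none in vivo.

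Cd34, a sialomucin of progenitors, had 4 regions, all downstream, and 2 of them had a peak in all libraries. Of these 2, one lies 15399 bp away and overlaps the promoter of Gm16897, and the other lies 34075 bp away. Tal1, a basic helix-loop-helix factor of blood stem cells, had 4 regions, with 2 to 4 in each library and 1 open in all 12. Gata2, a GATA factor of stem cells and mast cells, had 3 regions; iTreg had a peak in 2 and 3, Tconv in 1 each and the in vivo Tregs in 0 or 1. Meis1, a homeobox factor of stem cells, had 6 regions. Each Tconv library had 0, donor Treg 3 and 3, host pTreg 3 and 1, host tTreg 1 and 3, and iTreg 5 and 6. No Tconv library reached the lowest Treg library at Meis1. How many of all genes separate in this way was not counted. With lists of equal length the Tconv libraries again had 0, but both host pTreg libraries also had 0 of the 3 Meis1 regions left, against 3 and 3 in donor Treg.

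**Figure D2:**
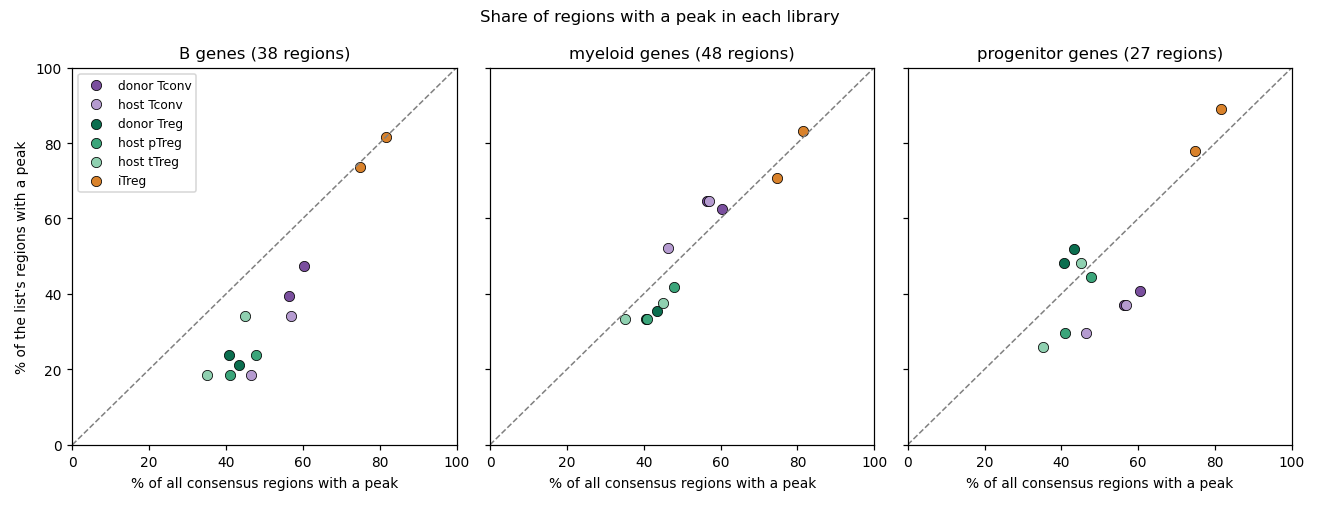
Percent of the regions of the B (38), myeloid (48) and progenitor (27) genes with a peak in each library, 1 point per library and 2 per group. In the myeloid panel the 4 Tconv points (52.1% to 64.6%) sit above the 6 in vivo Treg points (33.3% to 41.7%), and in the progenitor panel the donor Treg points (48.1% and 51.9%) sit above the donor Tconv points (40.7% and 37.0%). Of the progenitor regions, those of Meis1 had a peak at 3 and 3 in donor Treg and 0 and 0 in donor Tconv.

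The regulatory libraries (8, iTreg included) were compared with the 4 conventional libraries at each region. Meis1 and Gata1 each had a region with a peak in every Treg library and no Tconv library, and Spi1 had 2 regions with the reverse pattern. These 4 were the regions called, by Fisher's exact test (two-sided) with Benjamini-Hochberg adjustment over the 18887 regions whose number of peaks allowed p under 0.05. Of 35 member regions tested, 2 were higher in Treg, where 1.39% of all tested regions were called, and 2 were higher in Tconv, where 4.98% were called. The Meis1 region (chr11:19018722-19019461) spans its start. Its peaks were 292 and 318 bp wide in donor Treg, 272 and 150 in host pTreg, 192 and 322 in host tTreg and 695 and 505 in iTreg. Its Tconv libraries had none. In every list the narrowest peak was 150 bp wide, so the Meis1 peak in host pTreg 2 was at that floor. The Gata1 region (chrX:7977724-7978525) lies 1461 bp beyond the upstream end of the gene body, between Gata1 and Glod5. The Gata1 promoter window (chrX:7967861-7968160) lies inside that body and so farther from the region. Its peaks were 353 and 424 bp wide in donor Treg, 365 and 339 in host pTreg, 231 and 304 in host tTreg, and 711 and 790 in iTreg. Both regions were widest in iTreg, and no Tconv library had a peak at either.

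At Spi1, the region 3872 bp below the lower-coordinate end of the gene (chr2:91078214-91078791) had peaks of 524 and 578 bp in donor Tconv and 304 and 459 bp in host Tconv. The region in the gene body (chr2:91088322-91088712) had peaks of 357 and 292 bp in donor Tconv and 150 (the narrowest width of any list) and 347 bp in host Tconv. None of the 8 Treg libraries had a peak at either, while 3 other Spi1 regions had a peak in all 12. Such complete separation held for 2 of the 138 regions in the Treg direction (1.45%, against 0.342% of all regions) and for 2 in the Tconv direction (1.45%, against 1.22%). Each of the 4 regions had the smallest p that 8 against 4 libraries can give, 0.00202, and an adjusted p of 0.0317 (Fisher's exact test). Within the run code that donor Tconv, donor Treg and host Tconv share, donor Treg against Tconv was 2 of 2 against 0 of 4, or the reverse, at all 4 regions, and the smallest exact p of that design is 0.0667. An Itgam region in the gene (chr7:128105266-128105615), with a peak in 4 of 4 Tconv and 1 of 8 Treg libraries, had an adjusted p of 0.0996 by the same Fisher's exact test. The 4 calls were lost when every consensus region was tested (adjusted p 0.129, Fisher's exact test). They were also lost without any 1 of donor Tconv 1 or 2, host Tconv 2, donor Treg 1 or 2, host pTreg 1 or 2, or host tTreg 1 or 2 (adjusted p 0.0519 to 0.0664, Fisher's exact test). With each list limited to its widest 28394 peaks, the Gata1 region and the Spi1 region outside the gene were still called (adjusted p 0.02, Fisher's exact test), and the Meis1 and Spi1 body regions were not. Among peaks of at least 300 bp, of the 4 only the Spi1 region outside the gene was called (adjusted p 0.0344, Fisher's exact test).

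**Figure D3:**
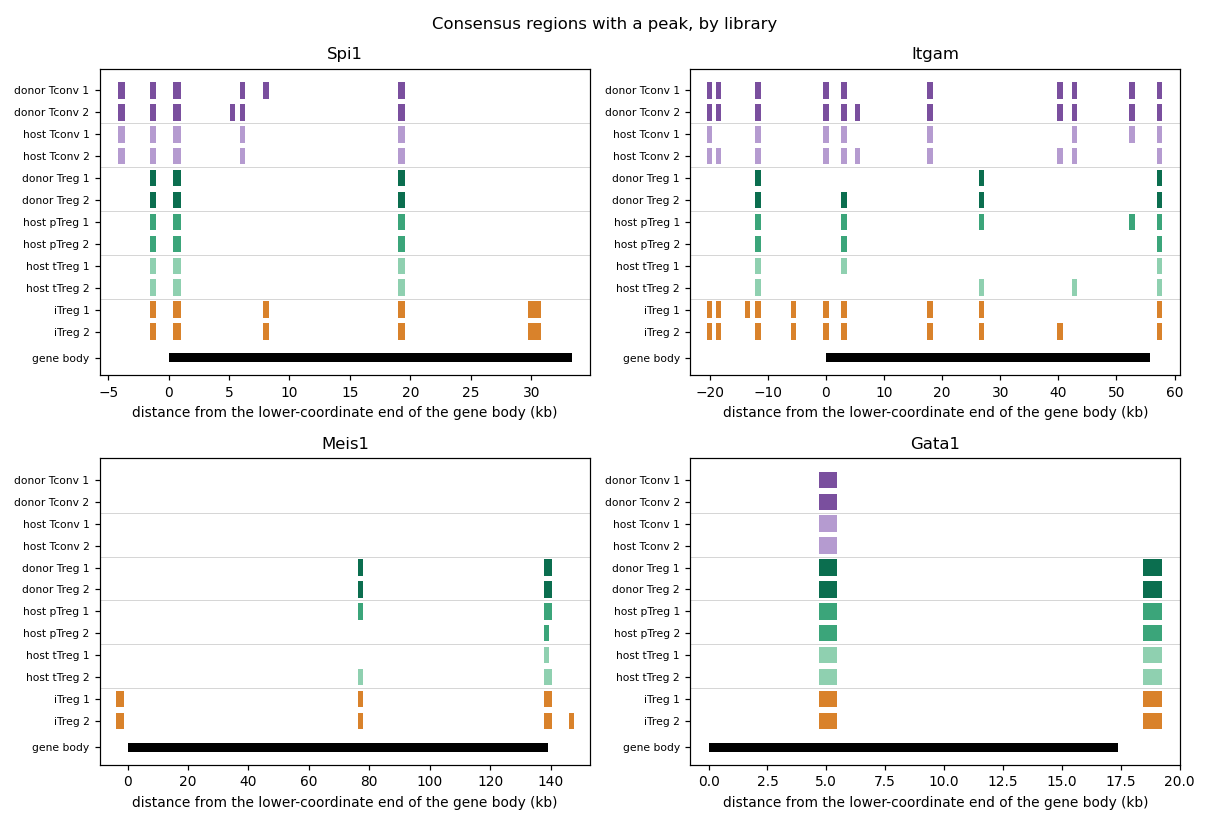
Consensus regions with a peak along Spi1, Itgam, Meis1 and Gata1 (1 row per library), with distance from the lower-coordinate end of the gene body in kb on the horizontal axis; narrow regions are drawn at a minimum width. The 2 called Spi1 regions are filled in the 4 Tconv rows alone, and the called Meis1 and Gata1 regions in the 8 Treg rows alone.

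Without the culture control, the myeloid genes Itgam, Fcgr3 and Spi1 and the pre-B gene Igll1 had regions with a peak in all 4 Tconv libraries and in none of the 6 in vivo Treg libraries. Of 34 member regions tested, 3 were higher in Treg (3.35% of 17531 regions called) and 7 were higher in Tconv (21.5% called), all at an adjusted p of 0.0192 (Fisher's exact test with Benjamini-Hochberg adjustment). The higher ones were the Meis1 and Gata1 regions and a region in Blk (chr14:63383280-63384286). Peaks at the Blk region were 236 and 407 bp wide in donor Treg, 849 and 494 in host pTreg, and 284 and 981 in host tTreg. Neither iTreg library had a peak there. The lower ones were the 2 Spi1 regions, 3 regions of Itgam, the Fcgr3 region and 1 region upstream of Igll1 (chr16:16865896-16866379), which lies between Igll1 and Vpreb1. The Itgam regions were its promoter (chr7:128062402-128062843), one 20035 bp upstream (chr7:128042436-128042774) and one in the gene body (chr7:128080063-128081028). At the Itgam promoter, the peaks were 437 and 397 bp wide in donor Tconv, 362 and 408 in host Tconv, and 350 and 390 in iTreg.

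As shares of all 138 regions, the 3 higher in Treg were 2.17% (0.764% of all regions) and the 7 higher in Tconv 5.07% (4.9% of all regions). The Itgam, Fcgr3 and Igll1 regions (5 in all, 3.62% of the members' regions against 3.21% of all regions) had a peak in both iTreg libraries as well as all 4 Tconv libraries. The 2 Spi1 regions had none in iTreg. The count of members higher in Tconv was near its background. A wider set, with a peak in both donor Tconv and both iTreg libraries and in no in vivo Treg library, held 11 regions (7.97%, against 5.79% of all regions). Without host Tconv 1, which had the fewest member regions of the Tconv libraries, 12 member regions were higher in Tconv, and without any 1 of the other libraries 7 or 8. With every consensus region tested, none was called (adjusted p 0.084, Fisher's exact test).

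The donor cells gave the comparison between converted and unconverted cells of the same origin, with 2 libraries each, where the smallest exact p is 0.333 and no test was made. Of 86 member regions with a peak in either group, 20 (23.3%) had one in both donor Tconv and neither donor Treg library, and the share over all regions was 19.9%. Of those, 7 lay at Itgam, and 2 each at Spi1, Rag1 and Cebpb. The reverse held for 7 (8.14%, against 2.41% of all regions): 3 at Meis1 and 1 each at Blk, Tfrc, Itgam and Gata1. The Itgam region open in donor Treg (chr7:128089142-128089622) also had a peak in host pTreg 1, host tTreg 2 and both iTreg libraries, so this gene held regions of either direction. With lists of equal length the balance turned, to 6 regions in donor Tconv only and 10 in donor Treg only. The 3 Meis1 regions were the start, one 433 bp upstream (chr11:19019508-19020661) and one in the body (chr11:18956997-18957997).

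Of the other pairs of in vivo groups, 2 were compared in this way, donor with host Tconv and host pTreg with host tTreg. Donor Tconv and not host Tconv had a peak in both libraries at 4 of 79 regions (5.06%, against 4.4% of all regions), 1 each at Ebf1, Sdc1, Pax5 and Cd22. The reverse was found at 0 of 79 (0.557% of all regions). Without 1 library these counts ranged from 5 (without host Tconv 1) to 17 (without host Tconv 2), with 6 without donor Tconv 1 and 10 without donor Tconv 2, and in the reverse direction they were 0, or 2 without host Tconv 1. Between host pTreg and host tTreg, which differ in the Nrp1 gate, 0 of 68 member regions separated in either direction, where 3.35% of all regions favoured pTreg and 0.452% tTreg. Those zeros rested on requiring both libraries. Regions in host pTreg only numbered 1 without host pTreg 1 or host tTreg 1, 5 without host pTreg 2 and 4 without host tTreg 2. Regions in host tTreg only numbered 2 without host pTreg 1, 1 without host pTreg 2, 10 without host tTreg 1 and 0 without host tTreg 2. No test was made on these pairs.

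The culture-induced cells had peaks at many regions where no bone marrow library had one. Both iTreg libraries and no in vivo library had a peak at 25 of the 138 regions (18.1%, against 16.5% of all regions), in 19 genes. These 25 were called higher in iTreg among 48 member regions tested, where 51.9% of 24491 tested regions were called (Fisher's exact test of 2 against 10 libraries with Benjamini-Hochberg adjustment, p 0.0152, adjusted p 0.0281). A further 7 member regions reached an unadjusted p under 0.05 by the same exact test. The count is near its background and is not a result about these genes as a class. By lineage the 25 were 8 B, 1 plasma cell, 8 myeloid, 2 erythroid and 6 progenitor regions. Kit had 3 of them, Pax5, Ebf1, Igll1 and Meis1 had 2 each, and 14 genes had 1. They included the starts of Kit and Lyz2 and the upstream regions of S100a8, S100a9 and Hba-a1.

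No member region was called higher in the in vivo libraries, where 2.0% of all tested regions were called, and none reached an unadjusted p under 0.05 in that direction (Fisher's exact test). The regions with a peak in some in vivo library and neither iTreg library numbered 16 (11.6%, against 14.8%). They included the 2 Spi1 regions, the Blk region and the Mpo region. None of the 138 had a peak in all 10 in vivo libraries and in neither iTreg library, a pattern that 0.636% of all regions showed. The iTreg lists were the longest, at 58357 and 63207 peaks against 28394 to 47193 in vivo. When each list was limited to its widest 28394 peaks, 4 member regions were higher in iTreg and 1 in vivo. Among peaks of at least 300 bp the count was 14, and within 10 kb of a gene it was 16. With every consensus region tested it was 0 (adjusted p 0.0883, Fisher's exact test), and without either iTreg library no test could pass, since the smallest exact p of 10 against 1 is 0.0909.

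**Figure D4:**
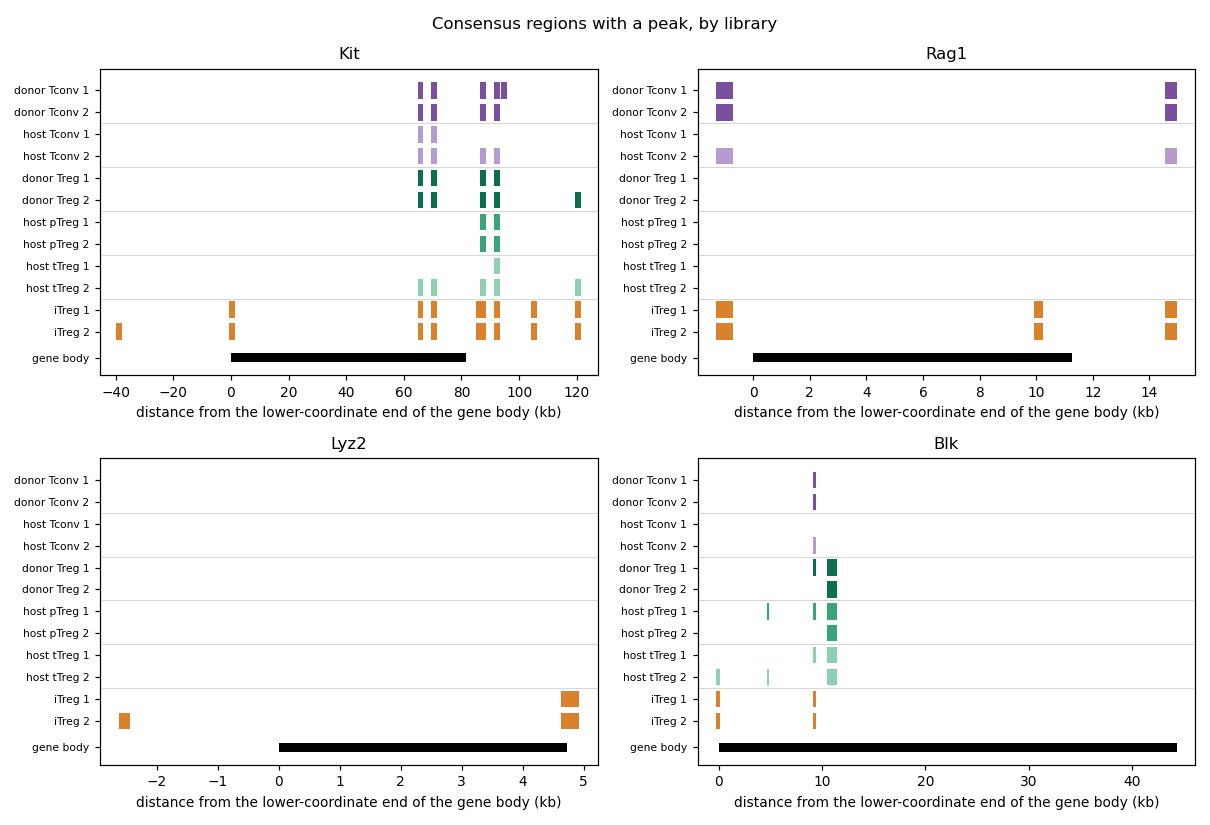
Consensus regions with a peak along Kit, Rag1, Lyz2 and Blk (1 row per library), with distance from the lower-coordinate end of the gene body in kb on the horizontal axis; narrow regions are drawn at a minimum width. The regions at the starts of Kit and Lyz2 are filled in the 2 iTreg rows alone, and the called Blk region is filled in the 6 in vivo Treg rows and empty in iTreg.

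For comparison, 16 T cell genes held 176 regions, each gene had a region with a peak in all 12 libraries, and 42.6% of the regions had one in all 12. Of these T cell regions, 6 of 44 tested were higher in Tconv and 0 in Treg, and 9 of 47 tested were higher in iTreg and 7 in vivo (the same Fisher's exact tests). Over all tested regions, the background for this and the following lists, 4.98% were higher in Tconv and 1.39% in Treg. In the iTreg comparison 51.9% were higher in iTreg and 2.0% in vivo. Further genes of the same lineages, taken from a separate list, were counted in the same way. In the Treg against Tconv comparison, 1 of 6 other B regions tested (Ralgps2), 1 of 4 other plasma cell regions (Irf4) and 1 of 17 other progenitor regions (Flt3) were higher in Tconv, and none was higher in Treg. The 10 other myeloid regions tested and the 7 of natural killer, mast cell and megakaryocyte genes gave no call there, and none of the 9 other erythroid regions could be tested. In the iTreg comparison, where 51.9% of all tested regions were called, 4 of 13 other B, 1 of 3 other plasma cell, 11 of 16 other myeloid, 2 of 5 other erythroid and 12 of 17 other progenitor regions tested were higher in iTreg, and 1 of 8 tested in the last list. By the assignment rule, the genes without a region in any library were Mzb1, Mpeg1, Cd68, Alas2, Hbb-bt, Hba-a2, Ermap and Pf4, besides the members Cd79a, Vpreb1, Csf1r and Elane. Whether other cells in the sorts contributed to any region was not tested.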

How the data were processed

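ATAC-seq peak lists of 12 mouse libraries were used as the authors deposited them. Each file gives peak coordinates, a strand column and a score that the authors set to 1000 for every peak, so it carries no intensity and was not used. Bowtie2 2.3.3, HOMER 4.10, bedtools and the mm10 build are named in the submitters' processing notes; the sources used here give neither their order and settings nor the thresholds for calling peaks. Read depth is unknown.

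Peaks were merged (1 bp shared) and assigned to protein-coding RefSeq genes of GRCm38.p6 by body or nearest end within 50 kb. A library either had a peak in a region or did not. Fisher's exact test (two-sided, scipy 1.17.1) with Benjamini-Hochberg adjustment was fitted over all regions that could reach p under 0.05, and a call was an adjusted p under 0.05. It was tested on simulated data. Python 3.11.15, numpy 2.4.6, pandas 2.3.3 and matplotlib 3.10.9 were used.

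Every member is accounted for; those described by library had a called region, a region separating groups or no region, and the others are given by counts. Promoter windows of 6 members (Ms4a1, Cd79b, Blk, Csf1r, Spi1 and Cebpe) were not used here. Cebpe, Spi1, Blk and Ms4a1 regions are placed by coordinate side and not by strand. The members and lists were chosen with earlier results of these data known. Alternatives were other overlap, distance and width limits, equal list length, all regions tested, a replicate block and leaving out each library.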

Additional observations from a re-analysis of the deposited data

How the results depend on the processing

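The settings that moved counts of called or shared member regions by over 1.5 times were these. Higher in Treg: 1 with equal list length (28394 peaks each, narrowest kept 150 to 498 bp), 0 with peaks of at least 300 bp, 0 with every region tested. Higher in Tconv: 0 with every region tested and 7 with the 6 in vivo Treg libraries, the latter losing all calls with every region tested and keeping 3 and 3 with equal list length. Higher in iTreg: 4 with equal list length, 14 with peaks of at least 300 bp, 16 within 10 kb and 0 with every region tested; higher in vivo was 1 with equal list length. Peaks in both libraries, with equal list length, numbered 36 in donor Tconv, 28 in host Tconv, 42 in donor Treg, 35 in host pTreg, 37 in host tTreg and 38 in iTreg, so that iTreg no longer led; with peaks of at least 300 bp they numbered 32 in host Tconv and 23 in host tTreg. Regions in both donor Treg and neither donor Tconv library numbered 1 at 300 bp; with equal list length, both donor Tconv and neither donor Treg gave 6 against 10 in the other direction, the reverse of the order reported, both donor Tconv and neither host Tconv 1, and both host tTreg and neither host pTreg 1. Testing every region lowers calls because it enlarges the adjustment; for the other losses the cause was not tested. Equal list length keeps the widest peaks, so it changes length and width together. Each called region separated its groups completely, so the settings could remove a call but could not reverse its direction. Merging at 100 bp changed no call.

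Leaving out 1 library at a time gave 0 to 2 regions higher in Treg, 0 to 2 higher in Tconv, 25 to 28 higher in iTreg and 0 to 0 higher in vivo; fewer libraries raise the smallest possible p. With 6 in vivo Treg libraries the ranges were 3 to 4 higher in Treg and 7 to 12 higher in Tconv (adjusted p 0.0259 to 0.0371, Fisher's exact test). Peaks in the remaining library of a group numbered 70 to 74 (donor Tconv), 50 to 66 (host Tconv), 51 to 52 (donor Treg), 44 to 55 (host pTreg), 42 to 59 (host tTreg) and 106 to 114 (iTreg). Separating regions ranged from 7 to 9 (donor Treg only), 23 to 26 (donor Tconv only), 5 to 17 (donor but not host Tconv), 0 to 2 (the reverse), 1 to 5 (pTreg only) and 0 to 10 (tTreg only). Promoters ranged from 6 to 6 in donor Tconv, 5 to 6 in host Tconv, 5 to 5 in donor Treg, 5 to 5 in host pTreg, 5 to 6 in host tTreg and 9 to 10 in iTreg. Without an iTreg library the in vivo comparison has no value. The leave-outs, all-region test and equal list length of the 6 against 4 comparison, and the counts by lineage with equal list length, were chosen after seeing the data.

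With the replicate number as a block, 0 member regions were higher in Treg and 0 in Tconv (adjusted p 0.0628, exact test stratified by replicate number), and 25 remained higher in iTreg (adjusted p 0.0345). The numbers are those of the sample titles; the sample descriptions number the donor Treg and host Tconv libraries 2 and 3, so the block is one of several possible. Nothing in the labels pairs the numbers, and deviations of same-numbered libraries correlated at -0.13 to 0.057.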
